A study of Mus musculus with 14 samples.

Results

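The 9 genes described here are Txndc17, Glipr2, Bcl2l14, AW112010, Pdlim4, S100a6, Gngt2, Il1r2 and Spic. These 9 of the 21205 genes in the table were chosen by the difference of their summed UMI counts between Irf1_dXCR1 and Irf1_FF plates in mature dendritic cells of the same data. Their Irf1 difference in mature cells is therefore a description without a test. The cells were sorted as type 1 conventional dendritic cells (cDC1), which take up dead tumour cells and present their antigens to CD8 T cells, from subcutaneous YUMM1.7 melanomas of female mice. Each of the 14 plates held cells of 1 tumour of 1 mouse, and the mouse was the replicate. Irf1_FF had 4 plates with 165 cells, Irf1_dXCR1 5 plates with 223 cells, Ikbkb_FF 1 plate with 34 cells and Ikbkb_dXCR1 4 plates with 133 cells. The FF genotypes are the named controls. The names read as floxed alleles of Irf1 or Ikbkb, intact (FF) or deleted in XCR1-expressing cells (dXCR1), but the sources used here do not give the recombinase, the exon removed or any allele shared by all groups. Irf1 mice belonged to experiment M3 and were all 6 weeks old. Ikbkb mice belonged to experiment M2, where Ikbkb_FF 1, Ikbkb_dXCR1 1 and Ikbkb_dXCR1 2 were 8 weeks old and Ikbkb_dXCR1 3 and 4 were 6 weeks old. Experiment and targeted gene cannot be told apart, so levels were tested within an experiment.

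Irf1 encodes a transcription factor that interferon and NF-κB signals induce and that switches on genes of antigen presentation, cytokines and chemokines. Ikbkb encodes IKKβ, the kinase that releases canonical NF-κB dimers. When a cDC1 matures it takes up Ccr7, the chemokine receptor that guides it to the lymph node, and Fscn1, an actin-bundling protein, and lowers uptake receptors such as Clec9a. The 9 genes come from unrelated families. Txndc17 is a small thioredoxin-like oxidoreductase. Bcl2l14 belongs to the BCL2 family of regulators of cell death. Glipr2 is a CAP-domain protein of the Golgi surface, and Pdlim4 joins a PDZ and a LIM domain and binds actin structures. AW112010 is annotated as a long intergenic RNA and is known as an interferon-inducible transcript of immune cells. Il1r2 is the decoy receptor that binds IL-1 without signalling. Spic is an ETS-family transcription factor best known from red pulp macrophages. Gngt2 is a G protein gamma subunit first known from cone photoreceptors, and S100a6 is a small calcium-binding protein.

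Promoter sequence is shown for the genes with the lowest log2 ratio of means between the Irf1 groups (Txndc17, Bcl2l14) and for the receptor among those higher (Il1r2). Sequences are from RefSeq (GRCm38.p6, plus strand) and start 250 bases before the RefSeq start site, from which distances are counted. They end where the first annotated exon in that window begins, except that Il1r2 runs 6 bases into it to complete a match. For Il1r2 the RefSeq start site lies inside the annotated gene and not at its first base, so the sequence shown precedes an internal start site. Capitals mark motif matches: in Txndc17 a kappaB-like match (GGG, any 2 bases, TT, any base, CC) 198 bases before the RefSeq start site and a short IRF motif (AANNGAAA) 115 bases before it, and in Il1r2 a GAS-type match (TTCNNNGAA) 111 bases before it. Bcl2l14 has no capitals because none of the motifs matched.
Txndc17, chr11:72207304-72207546: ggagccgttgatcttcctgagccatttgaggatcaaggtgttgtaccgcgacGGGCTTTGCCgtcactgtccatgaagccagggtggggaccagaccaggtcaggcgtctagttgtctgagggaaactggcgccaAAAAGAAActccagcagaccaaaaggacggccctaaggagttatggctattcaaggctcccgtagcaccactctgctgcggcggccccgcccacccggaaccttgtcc
Bcl2l14, chr6:134396079-134396317: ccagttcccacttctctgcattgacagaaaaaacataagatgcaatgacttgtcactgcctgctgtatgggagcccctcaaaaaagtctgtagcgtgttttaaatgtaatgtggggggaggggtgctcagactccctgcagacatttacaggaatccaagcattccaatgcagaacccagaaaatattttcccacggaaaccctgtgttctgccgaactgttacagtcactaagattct
Il1r2, chr1:40085843-40085990: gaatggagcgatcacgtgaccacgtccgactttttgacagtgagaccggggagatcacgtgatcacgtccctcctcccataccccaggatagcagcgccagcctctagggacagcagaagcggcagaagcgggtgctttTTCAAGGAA

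Promoter windows of 300 bases, from 250 before to 50 after the start site, were matched by symbol for 8 of the 9 genes, and Bcl2l14 had 2 windows. The paired IRF element (GAAA, any 2 bases, GAAA, read like the others on both strands) was in none of the members' windows, while 3.443% of 32851 promoters hold it. The short IRF motif, which every paired element contains, is in 23.917% of promoters, and it was found in the windows of Txndc17 and S100a6. The GAS-type motif is in 8.298% of promoters and the kappaB-like motif in 4.794%, so each of these letters also occurs in many promoters outside the set. A match describes these letters and not a bound site.

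Cells were called Ccr7+ when they had at least 1 unique molecular identifier (UMI) of Ccr7 and Ccr7- otherwise. This gave 49 Ccr7+ and 116 Ccr7- cells in Irf1_FF, 67 and 156 in Irf1_dXCR1, 8 and 26 in Ikbkb_FF and 46 and 87 in Ikbkb_dXCR1. Of all 170 Ccr7+ cells 36 had fewer than 10 Ccr7 UMIs. Plates held 2810321 to 10120557 UMIs, and the median Ccr7+ cell had 118542 UMIs in Irf1_FF, 130874 in Irf1_dXCR1, 101335 in Ikbkb_FF and 144654.5 in Ikbkb_dXCR1. The 10 cDC1 marker genes were each found in 27.6% of Ccr7+ cells of Irf1_FF and 25.2% of Irf1_dXCR1 on average, against 42.9% and 42.4% of Ccr7- cells. The defining genes of the labelled cell type were thus sparse in Ccr7+ cells. Summed cDC1 markers stood at 3245 to 5399 counts per 1000000 UMIs (CPM) in Ccr7+ cells of Irf1_FF plates and 1423 to 3090 in Irf1_dXCR1 plates, and the 14 macrophage or monocyte markers at 474 to 840 and 535 to 2375 CPM. Median XCR1 staining of Ccr7+ cells, on the arcsinh scale, was 7.975 to 9.414 in Irf1_FF plates and 7.053 to 8.219 in Irf1_dXCR1 plates. The part of these differences in the results was not tested. The targeted transcript did not separate the Irf1 groups: Irf1 had 660, 808, 473 and 947 CPM in Ccr7+ cells of Irf1_FF plates 1 to 4 and 642, 599.7, 779, 252 and 416 CPM in Irf1_dXCR1 plates 1 to 5. Since UMIs tag the 5′ end, these levels do not check which exons were removed.

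In Ccr7+ cells 5 members were lower and 4 were higher in the mean of Irf1_dXCR1 plates. Levels are CPM of UMIs summed over a plate's Ccr7+ cells. In such sums, fewer positive cells and less RNA per cell cannot be told apart. The single-cell values below give the share of cells with a UMI and the count in those cells. A share also depends on RNA per cell and on depth, so these values do not fully separate them. For 6 of the 9 members no Irf1_dXCR1 plate lay within the range of the Irf1_FF plates, 2 below it and 4 above. Over all 11786 genes kept for these cells 104 genes, or 0.882%, were separated in that way, 0.501% below and 0.382% above, and since this contrast chose the members nothing is read from the difference.

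Txndc17 (chr11:72207547-72210015, plus strand) showed the widest gap in CPM. Irf1_FF plates 1 to 4 had 517, 1841, 1477 and 2366 CPM, and Irf1_dXCR1 plates 1 to 5 had 316, 5.12, 0, 406 and 317 CPM. The lowest control plate, which had 6 Ccr7+ cells, was still above the highest Irf1_dXCR1 plate. The means were 1550 ± 780 (SD, n = 4) and 209 ± 192 CPM (n = 5), a log2 ratio of means of -2.89. Bcl2l14 (chr6:134396318-134438736, plus strand), the BCL2 family member, was separated as well, with 272, 863, 830 and 1589 CPM in Irf1_FF plates and 233, 0, 0, 65.7 and 191 CPM in Irf1_dXCR1 plates. No UMI of it was found in Ccr7+ cells of Irf1_dXCR1 plates 2 and 3, which held 8 and 7 such cells. The log2 ratio of its means was -3.18.

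Glipr2 (chr4:43957401-43979118, plus strand), the Golgi-surface protein, was lower in the mean with overlapping plates. Its levels were 634, 1808, 1091 and 3138 CPM in Irf1_FF plates and 660, 1147, 589, 579 and 616 CPM in Irf1_dXCR1 plates, a log2 ratio of means of -1.22. The highest Irf1_dXCR1 value came from only 2 of the 8 Ccr7+ cells on plate 2. AW112010 (chr19:11047612-11055808, minus strand), the interferon-inducible RNA, had 789, 1788, 1595 and 2377 CPM in Irf1_FF plates and 1046, 885, 1398, 461 and 915 CPM in Irf1_dXCR1 plates, with a log2 ratio of means of -0.80 and overlap through the first control plate. Pdlim4 (chr11:54054928-54069014, minus strand), whose start site lies 299.0 kb from that of Irf1, had 177, 652, 689.8 and 501 CPM in Irf1_FF plates. Irf1_dXCR1 plates had 253, 5.12, 607, 95.7 and 64.2 CPM of Pdlim4, so plate 3 stood at the control level and the other 4 plates were below 3 of the 4 controls.

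The 4 members that were higher were all separated by plate. S100a6 (chr3:90612882-90624181, plus strand) had 361, 70.0, 211 and 144 CPM in Irf1_FF plates and 642, 692, 652, 687 and 716 CPM in Irf1_dXCR1 plates. Its Irf1_dXCR1 plates lay close together, with a mean of 678 ± 30.4 CPM (n = 5) against 196 ± 124 CPM (n = 4). Gngt2 (chr11:95837216-95845734, plus strand), the G protein subunit, had 20.1, 107, 0 and 142 CPM in Irf1_FF plates and 885, 928, 291, 392 and 469 CPM in Irf1_dXCR1 plates, a log2 ratio of means of 3.14. Its plates overlapped when cells' own CPM were averaged instead. The decoy receptor Il1r2 (chr1:40074079-40125231, plus strand) had 71.8, 0, 0 and 52.6 CPM in Irf1_FF plates and 587, 373, 393, 305 and 912 CPM in Irf1_dXCR1 plates, a log2 ratio of means of 4.05. In control plates 2 and 3 no Ccr7+ cell had a UMI of Il1r2. Its plates overlapped by level when Fscn1 was required beside Ccr7, with Irf1_dXCR1 plate 1 then at 0 like the controls, and by share with at least 10 Ccr7 UMIs. Spic (chr10:88674772-88685015, minus strand) had 1 UMI in all Ccr7+ cells of Irf1_FF and 2182 UMIs in those of Irf1_dXCR1, where plates 1 to 5 had 21.9, 11.5, 367, 464 and 207 CPM. No ratio is given for Spic because the control count is at the counting floor of 3 UMIs.

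**Figure D1:**
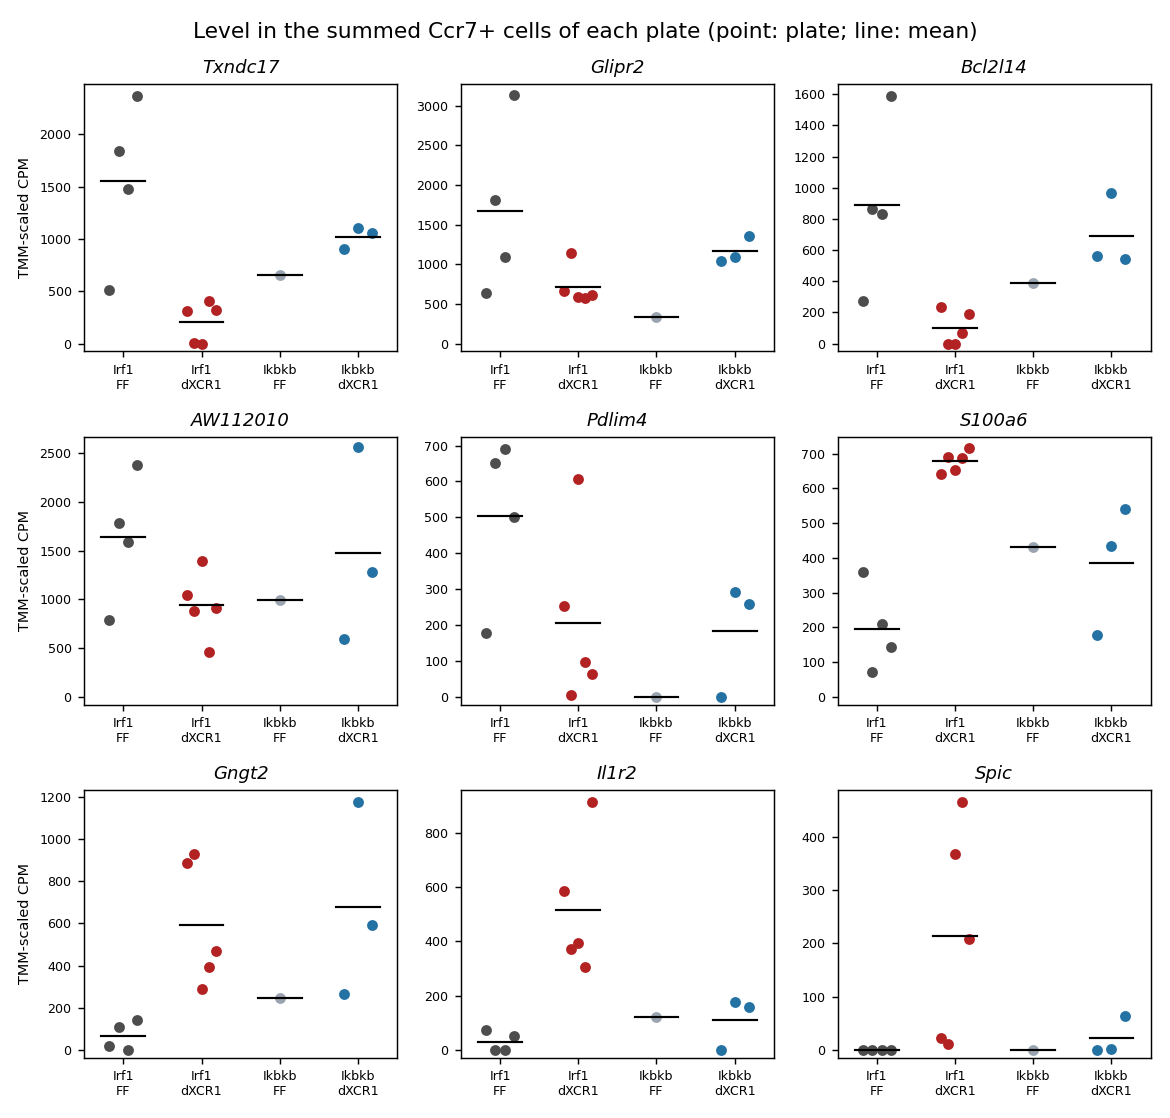
Levels of the 9 genes in Ccr7+ cells, in CPM (vertical axis), 1 point per plate with at least 5 Ccr7+ cells and a line at the group mean, for the 4 genotypes. Txndc17 and Bcl2l14 of Irf1_dXCR1 lie below all Irf1_FF plates, and S100a6, Gngt2, Il1r2 and Spic above them, while Glipr2, AW112010 and Pdlim4 overlap.

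Counted by cell, the members that were lower were mostly found in fewer cells. Txndc17 had a UMI in 38 of 49 Ccr7+ cells of Irf1_FF (77.6%, exact 95% binomial interval 63.4 to 88.2%) and in 22 of 67 of Irf1_dXCR1 (32.8%, 21.8 to 45.4%). By plate the shares were 83.3, 66.7, 76.9 and 86.7% in Irf1_FF and 26.7, 12.5, 0, 42.1 and 50.0% in Irf1_dXCR1, where the plate at 0 had 7 cells and allows up to 42.9%. No Irf1_dXCR1 plate reached the lowest control. Such intervals and limits cover counting error only, and cells of 1 plate share a mouse. Bcl2l14 was found in 33 of 49 cells (67.3%) and 10 of 67 (14.9%), with plate shares of 83.3, 53.3, 61.5 and 80.0% against 26.7, 0, 0, 15.8 and 16.7%. The plates at 0 allow up to 37.5% and 42.9%. Glipr2 was found in 35 cells (71.4%) and 28 cells (41.8%), and its plate shares of 60.0 to 86.7% and 25.0 to 57.1% did not overlap although its CPM did. AW112010 was found in 63.3% and 50.7% of cells and Pdlim4 in 42.9% and 23.9%, with overlapping plates for both.

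The members that were higher were found in more cells, to different extents. S100a6 had a UMI in 17 of 49 Ccr7+ cells of Irf1_FF (34.7%) and 55 of 67 of Irf1_dXCR1 (82.1%), and its plates ranged from 23.1 to 66.7% and from 60.0 to 100% with an overlap through the first control plate. Gngt2 was found in 9 cells (18.4%) and 28 cells (41.8%), with overlapping plates. Il1r2 was found in 2 of 49 cells (4.08%) and 19 of 67 (28.4%), with plate shares of 16.7, 0, 0 and 6.67% against 20.0, 25.0, 28.6, 36.8 and 27.8%. No Il1r2 UMI was found in 48 of the 67 Ccr7+ cells of Irf1_dXCR1, and cells with one were on every plate. The cells without one were shallower, with a median of 118507.5 UMIs against 173853, so the share found does not limit the share that expressed it. The control plates at 0 had 15 and 13 cells and allow up to 20.0% and 23.1%. Spic was found in 1 of 49 cells (2.04%) and 17 of 67 (25.4%), again on all 5 Irf1_dXCR1 plates, with 6.67, 12.5, 42.9, 36.8 and 27.8% of their cells.

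Plate shares were separated for 4 of the 9 members: Txndc17, Glipr2 and Bcl2l14 below the controls and Il1r2 above. Of all 11786 genes 72, or 0.611%, were separated by share, 0.373% below and 0.238% above. After each cell was thinned to 50000 UMIs, which left out 14 shallower Ccr7+ cells of Irf1_FF, 6 of Irf1_dXCR1, 3 of Ikbkb_FF and 12 of Ikbkb_dXCR1, 6 members were separated. The share over all genes was not computed for thinned cells, so nothing is read from that count. Thinned shares in Irf1_FF and Irf1_dXCR1 were 82.9% and 34.4% for Txndc17, 77.1% and 45.9% for Glipr2, and 77.1% and 14.8% for Bcl2l14. They were 71.4% and 54.1% for AW112010 and 57.1% and 24.6% for Pdlim4. Among the members that were higher they were 34.3% and 86.9% for S100a6, 17.1% and 41.0% for Gngt2, 5.71% and 31.1% for Il1r2, and 0% and 26.2% for Spic. Every member kept its direction after thinning, which is no independent support because this contrast chose the members. Irf1_dXCR1 Ccr7+ cells with S100a6 had a median of 150328 UMIs and the 12 without it 76623.

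**Figure D2:**
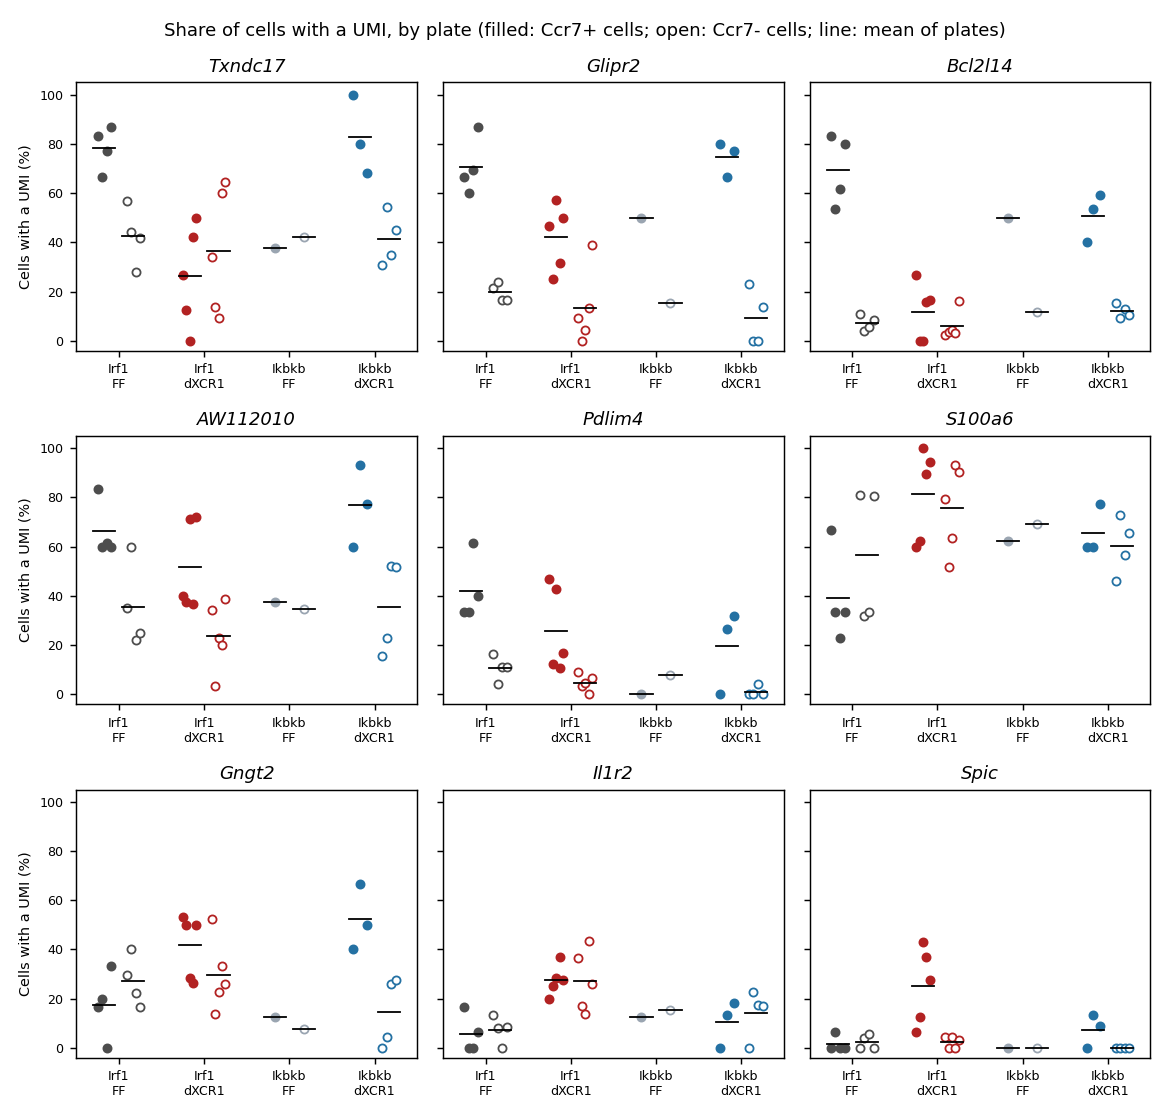
Share of cells with at least 1 UMI of each gene, in percent (vertical axis), by plate and genotype, for Ccr7+ cells (filled points) and Ccr7- cells (open points) of plates with at least 5 such cells, with lines at the means of plates. In Irf1_FF the filled Txndc17 points lie between 66.7 and 86.7%, and in Irf1_dXCR1 between 0 and 50.0%.

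Among cells with a UMI of a member the count differed too. The median count in positive Ccr7+ cells was 242.5 UMIs of Txndc17 in Irf1_FF and 101 in Irf1_dXCR1, 136 and 68 of Bcl2l14, and 291 and 201 of Glipr2. It was 318 and 205.5 of AW112010 and 184 and 89 of Pdlim4, so each of the 5 members that were lower had fewer UMIs per positive cell as well. A count cannot exceed 1024 per gene and cell, so the strongest cells are understated. The direction was the other way for the 4 members that were higher: 46 UMIs of S100a6 in Irf1_FF and 93 in Irf1_dXCR1, 30 and 174 of Gngt2, and 74.5 and 246 of Il1r2. Spic had 1 UMI in its single positive control cell and a median of 97 in the 17 positive Irf1_dXCR1 cells. All 38 Txndc17-positive control cells had at least 13 UMIs of it, and no count of Txndc17 in Irf1_dXCR1 exceeded 252, where the highest control cell reached 642.

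**Figure D3:**
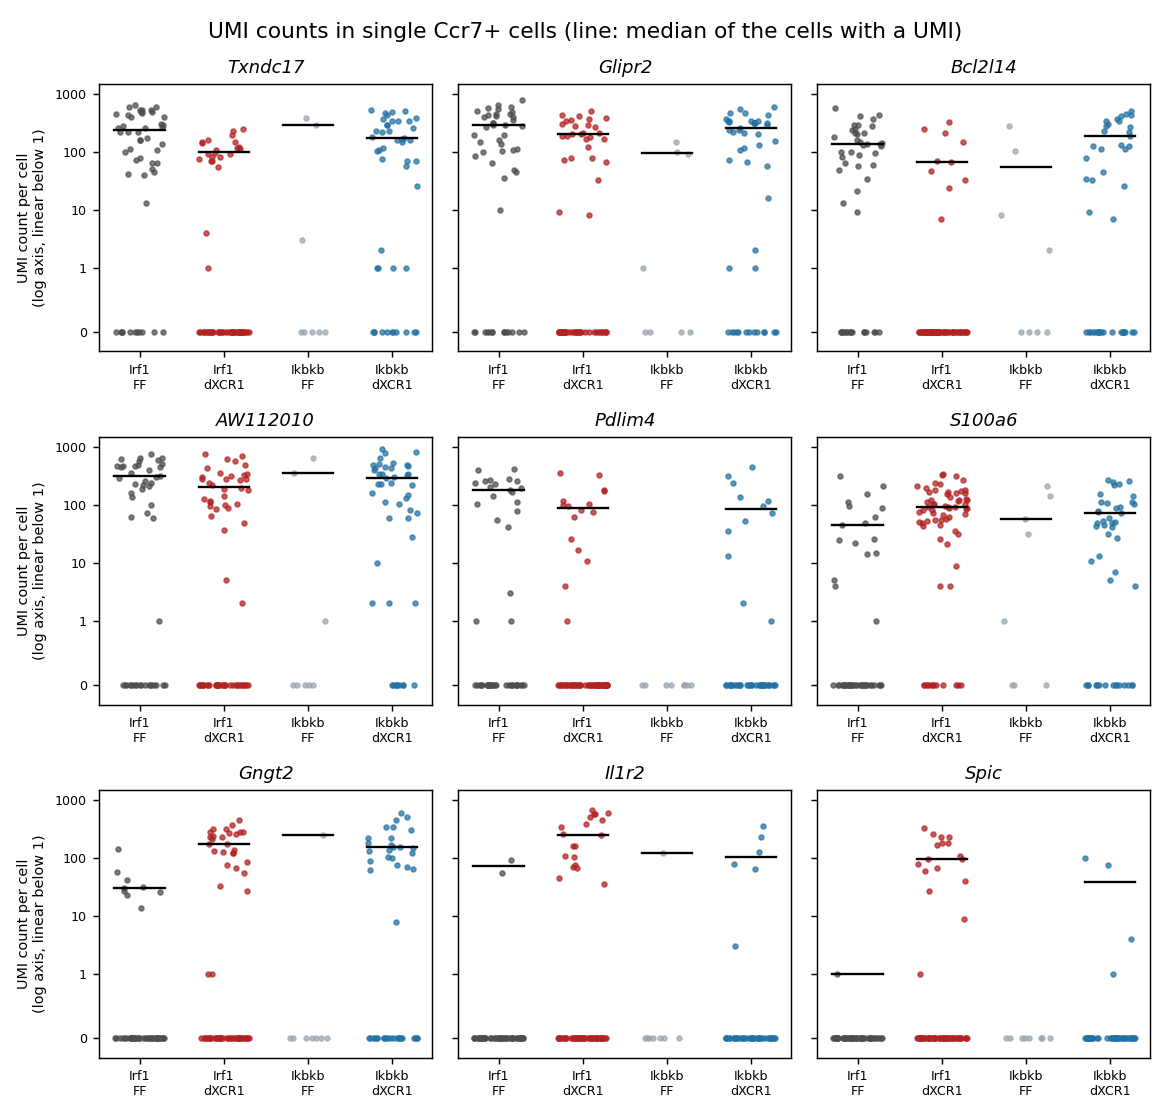
UMI count of each gene in every single Ccr7+ cell (vertical axis, logarithmic above 1 and linear below it) by genotype, with a line at the median of the cells that have a UMI. The median of Txndc17-positive cells is 242.5 UMIs in Irf1_FF and 101 in Irf1_dXCR1, and cells at 0 make up most of the Irf1_dXCR1 column.

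Txndc17, Glipr2, Bcl2l14 and AW112010 were also counted together in each cell, without Pdlim4. No count expected from the single shares was computed. The part of depth and of the amount of Ccr7 in these counts was not tested. All 4 were found in 23 of 49 Ccr7+ cells of Irf1_FF (46.9%), in 4 of 67 of Irf1_dXCR1 (5.97%), in 2 of 8 of Ikbkb_FF and in 22 of 46 of Ikbkb_dXCR1 (47.8%). None of the 4 was found in 8, 17, 0 and 3 of these cells. The median Ccr7+ cell held 4 of the 5 lower members in Irf1_FF and 2 in Irf1_dXCR1. Of the 67 Irf1_dXCR1 Ccr7+ cells 19 held Il1r2, 17 held Spic and 4 held both. Txndc17 was found in 10 of the 19 Il1r2-positive cells and in 7 of the 17 Spic-positive cells, so the members that were higher did not appear only in cells without Txndc17.

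The lower members followed the amount of Ccr7 within the controls. In the 39 Irf1_FF cells with at least 10 Ccr7 UMIs, Txndc17 was found in 89.7%, Glipr2 in 84.6%, Bcl2l14 in 79.5%, AW112010 in 74.4% and Pdlim4 in 51.3%. In the 10 Irf1_FF cells with 1 to 9 Ccr7 UMIs the 5 genes were found in 3, 2, 2, 2 and 1 cells. In the 56 Irf1_dXCR1 cells with at least 10 Ccr7 UMIs, Txndc17 was found in 30.4%, Glipr2 in 48.2%, Bcl2l14 in 17.9%, AW112010 in 53.6% and Pdlim4 in 26.8%. Each of the 5 was thus less frequent in Irf1_dXCR1 among cells with at least 10 Ccr7 UMIs. In the 11 Irf1_dXCR1 cells with 1 to 9 Ccr7 UMIs, all with exactly 1, the 5 genes were found in 5, 1, 0, 4 and 1 cells. In these few cells Txndc17 and AW112010 were more frequent in Irf1_dXCR1 than in Irf1_FF, at 45.5% against 30.0% and 36.4% against 20.0%. Within Irf1_dXCR1 Txndc17 was thus found in 45.5% of cells with 1 Ccr7 UMI and in 30.4% with at least 10. Of those 11 cells 6 were on plate 4 and 0 on plate 3, so plate and amount of Ccr7 are mixed there. The part of each was not tested. Ccr7 itself stood at 2673 ± 1286 CPM (n = 4) in Irf1_FF and 3239 ± 386 CPM (n = 5) in Irf1_dXCR1, and Fscn1 at 577 ± 391 and 588 ± 221 CPM. Spic was found in 17 of those 56 cells and in none of the 11 Irf1_dXCR1 cells with 1 to 9 Ccr7 UMIs, whereas Il1r2 was found in 13 and 6 of them.

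Cells of Irf1_FF with Irf1 transcripts more often held the lower members. Txndc17 was found in 29 of 32 control cells with an Irf1 UMI and in 9 of 17 without, Glipr2 in 27 and 8, Bcl2l14 in 25 and 8, AW112010 in 24 and 7, and Pdlim4 in 19 and 2. In Irf1_dXCR1, Txndc17 was found in 8 of 30 cells with an Irf1 UMI and in 14 of 37 without, Glipr2 in 15 and 13, Bcl2l14 in 7 and 3, AW112010 in 19 and 15, and Pdlim4 in 10 and 6. So 4 of the 5 were more frequent in cells with Irf1 there too, and Txndc17 was less frequent. In Ikbkb_dXCR1 all 5 were more frequent in the 22 cells with an Irf1 UMI than in the 24 without, with Txndc17 in 19 and 16, Glipr2 in 18 and 15, Bcl2l14 in 14 and 11, AW112010 in 20 and 17, and Pdlim4 in 7 and 5. These are descriptions over cells of few mice and carry no test. Of the 49 Irf1_FF Ccr7+ cells 14 had fewer than 50000 UMIs and 10 had 1 to 9 Ccr7 UMIs. Irf1 itself was found in 65.3% of Ccr7+ and 30.2% of Ccr7- cells of Irf1_FF. The part of depth and of the amount of Ccr7 in these counts was not tested.

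Expression of the members over single cells was compared over all 170 Ccr7+ cells of 14 plates as Pearson's r of log2(CPM + 10), among 2098 genes found in at least 20% of them. These cells share plates and depth, and they pool the genotypes whose difference chose the members, so r is given without a test. Il1r2 and Spic were found in too few cells to be included. The gene most like Txndc17 was Glipr2 (r = 0.62), followed by Bcl2l14 (0.60) and Gm7776 (0.49). Within a genotype, r of Txndc17 and Glipr2 was 0.83 in the 49 Irf1_FF cells, 0.12 in the 67 Irf1_dXCR1 cells and 0.74 in the 46 Ikbkb_dXCR1 cells, and r of Txndc17 and Bcl2l14 was 0.46, 0.26 and 0.67. The pooled likeness of Txndc17 and Glipr2 was thus nearly missing within Irf1_dXCR1. Txndc17 had a UMI in only 22 of those 67 cells, and the Irf1 contrast chose both genes. Nothing is therefore read from the lower r in Irf1_dXCR1. Glipr2 was most like Txndc17, the chemokine Ccl22 (0.60) and the serine protease inhibitor Serpinb6b (0.56). With Ccl22 it had 0.83, 0.44 and 0.73 within the 3 genotypes. AW112010 was most like the chemokine Ccl5 (0.55, and 0.61, 0.35 and 0.67 within the genotypes), Glipr2 (0.53) and Cd63 (0.48), and Pdlim4 was most like the cytokine subunit Il12b (0.45, and 0.54, 0.19 and 0.61 within them), Nudt17 (0.44) and Glipr2 (0.42). The higher members had weaker neighbours: Lgals1 (0.37) was nearest to S100a6 and the lysosomal protease Lgmn (0.38) to Gngt2, with 0.31, 0.47 and 0.28 and with 0.07, 0.34 and 0.47 within the genotypes. Ccl5 and Il12b, which were picked with the members in earlier work on these data, had 1950 ± 1016 and 2221 ± 1770 CPM in Irf1_FF (n = 4) and 740 ± 482 and 1221 ± 551 CPM in Irf1_dXCR1 (n = 5).

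Cells with Il1r2 and cells with Spic differed in their other transcripts. The 19 Il1r2-positive Ccr7+ cells of Irf1_dXCR1 had a median sum of 3505 CPM over the 14 mature dendritic cell markers, against 17619 CPM in the 48 cells without Il1r2. These markers include Ccr7 itself and Il12b, so the sum is not independent of the Ccr7 count. Cells of 5 plates are pooled in these values. Fscn1 was found in 7 of the 19 and 34 of the 48, and the cDC1 genes Xcr1 in 7 and 2 and Clec9a in 8 and 3. Of the 19 cells 6 had a single Ccr7 UMI. Among the Irf1_dXCR1 cells with at least 10 Ccr7 UMIs, a restriction chosen after seeing the data, the 13 with Il1r2 had a median of 6808 CPM of mature markers and the 43 without 17764 CPM. Fscn1 was then found in 6 and 32 cells, Xcr1 in 4 and 1, and Clec9a in 6 and 2. The macrophage or monocyte markers of all 19 had a median sum of 525 CPM against 0 in the 48, and the 19 were deeper, as given above. The 17 Spic-positive cells had a median of 17847 CPM of mature markers against 13708 CPM in the 50 without Spic. Fscn1 was found in 15 of the 17 and 26 of the 50, Xcr1 in 0 and 9, and Clec9a in 2 and 9. The 5 red pulp macrophage markers were near 0 in Spic-positive cells, with Slc40a1 in none and Hmox1 and Vcam1 in 1 cell each. The 6 neutrophil markers, which were listed because neutrophils express Il1r2, were found in 0.877% of Il1r2-positive cells on average, and S100a8 and S100a9 were at 0 in all 67 cells.

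**Figure D4:**
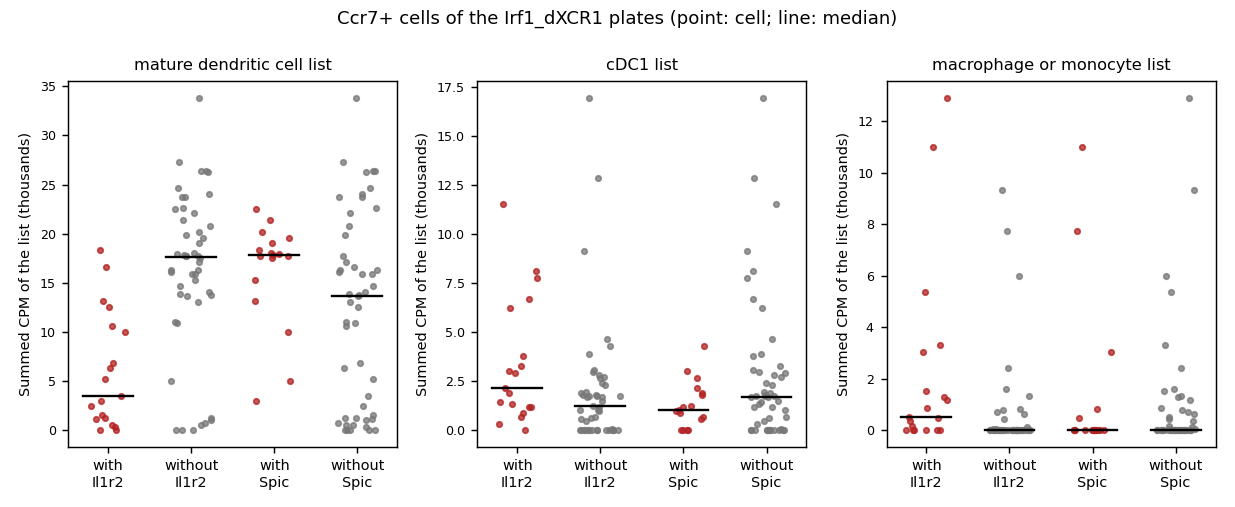
Summed CPM of mature dendritic cell, cDC1 and macrophage or monocyte markers (vertical axes) in single Ccr7+ cells of Irf1_dXCR1, split by whether Il1r2 or Spic was found. The mature markers include Ccr7. Il1r2-positive cells, 6 of 19 with a single Ccr7 UMI, have a median of 3505 CPM of mature markers and cells without it 17619, while Spic-positive cells have 17847.

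The choice of members did not use the Ikbkb plates, whose Ccr7+ cells had 412 CPM of the targeted gene Ikbkb in Ikbkb_FF and 6.14, 347 and 503 CPM in Ikbkb_dXCR1 plates 1, 3 and 4. Plate 2 had 4 Ccr7+ cells and was left out. The same 3 deleted plates had 899.9, 1106 and 1055 CPM of Txndc17 and the single Ikbkb_FF plate 657 CPM. All 3 were above the control. For Glipr2 the values were 1037, 1087 and 1361 CPM against 334 CPM, for Bcl2l14 562, 966 and 541 CPM against 387 CPM, and for Gngt2 263, 1173 and 594 CPM against 248 CPM. These too were above the control on every plate, which makes 4 of the 9 members, and 11.6% of all 11786 genes lay above it in this way and 13.9% below. The control and Ikbkb_dXCR1 1 were 8 weeks old, and Ikbkb_dXCR1 3 and 4 were 6 weeks old. With a single control plate and mixed ages nothing is read from these positions. AW112010 had 589.7, 2566 and 1282 CPM against 990.2 CPM, S100a6 178, 434 and 541 CPM against 433 CPM, and Il1r2 0, 176 and 159 CPM against 122 CPM. Pdlim4 had 0, 292 and 258 CPM and Spic 0, 2.10 and 62.8 CPM, and neither had a UMI in the 8 control cells, which allows a share of up to 37.5%.

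None of the 9 members passed the test between the Ikbkb genotypes in Ccr7+ cells, where edgeR called 17 of 11786 genes, or 0.144%, 16 of them higher (0.136%) and 1 lower (0.00848%). The control is a single plate whose spread is taken from the other groups, and the median log2 fold change over all genes was 0.90. The mouse of that plate was 8 weeks old and those of Ikbkb_dXCR1 3 and 4 were 6 weeks old, so genotype and age are partly mixed. Log2 fold changes, with their SE, were 1.80 ± 0.73 for Glipr2 (edgeR adjusted p = 0.837), 0.58 ± 0.66 for AW112010 (edgeR adjusted p = 0.841) and 0.64 ± 1.37 for Txndc17. Bcl2l14 stood at 0.83 ± 1.62, which like that of Txndc17 is below the median of all genes, Gngt2 at 1.45 ± 1.53, S100a6 at -0.17 ± 0.99 and Il1r2 at -0.12 ± 1.98. The standard errors are wide, and a test that misses the threshold does not show that the Ikbkb genotypes are alike. By cell, Txndc17 was found in 76.1% of Ccr7+ cells of Ikbkb_dXCR1 and 37.5% of the 8 of Ikbkb_FF (thinned 79.4% and 40.0%), Glipr2 in 71.7% and 50.0% (76.5% and 60.0%) and Bcl2l14 in 54.3% and 50.0% (61.8% and 40.0%). AW112010 was found in all 33 Ikbkb_dXCR1 cells with at least 10 Ccr7 UMIs.

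In Ccr7- cells the groups of plates overlapped for all 9 members, so 0 of 9 were separated by level between the Irf1 genotypes, where 152 of 15483 genes, or 0.982%, were. Txndc17 had 299, 413, 269.8 and 208 CPM in Ccr7- cells of Irf1_FF plates and 252, 242, 109, 406 and 304 CPM in Irf1_dXCR1 plates. Its means were 297 ± 86.0 CPM (n = 4) and 263 ± 108 CPM (n = 5). Bcl2l14 was scarce in both, at 33.7 ± 11.02 and 33.0 ± 40.0 CPM, and so was Glipr2, at 104 ± 28.1 and 57.3 ± 72.2 CPM. AW112010 had 395 ± 307 and 291 ± 257 CPM, Pdlim4 63.6 ± 29.5 and 32.1 ± 27.0 CPM, Gngt2 247 ± 174 and 257 ± 229 CPM, and Spic 24.9 ± 32.9 and 9.93 ± 17.6 CPM. Of the members higher in Ccr7+ cells of Irf1_dXCR1, Spic had the lower mean there in Ccr7- cells and Gngt2 nearly equal means. Il1r2 had 89.4, 149, 0 and 38.2 CPM in Irf1_FF plates and 977, 223, 387, 266 and 71.0 CPM in Irf1_dXCR1 plates, and S100a6 586, 250.2, 141 and 492 against 945, 427, 468, 685 and 659 CPM. For both genes 1 or more Irf1_dXCR1 plates lay among the controls.

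EdgeR called 0 of 15483 genes, or 0%, between the Irf1 genotypes in Ccr7- cells, while 1292 genes had an unadjusted p under 0.05 and DESeq2 called 94. Log2 fold changes, with their SE, were 0.79 ± 0.37 for S100a6 (edgeR adjusted p = 0.507) and 2.48 ± 1.36 for Il1r2 (edgeR adjusted p = 0.525). The other 7 members had adjusted p values of 1, with Txndc17 at -0.18 ± 0.36 and Bcl2l14 at -0.03 ± 1.07. Their difference between Ccr7+ and Ccr7- cells was not tested, because the Ccr7+ contrast chose the members. By cell, Il1r2 was found in 10 of 116 Ccr7- cells of Irf1_FF (8.62%) and 45 of 156 of Irf1_dXCR1 (28.8%), and S100a6 in 62.9% and 76.9%. Txndc17 was found in 44.8% and 37.8%, Glipr2 in 19.8% and 13.5%, and Bcl2l14 in 7.76% and 5.77% of these cells. All of Txndc17, Glipr2, Bcl2l14 and AW112010 together were found in 1 of 116 and 1 of 156 Ccr7- cells.

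Between the Ikbkb genotypes edgeR called 2 of 15483 genes, or 0.0129%, in Ccr7- cells, and none was a member. Txndc17 had 342 CPM in Ikbkb_FF and 346 ± 47.9 CPM in Ikbkb_dXCR1 (n = 4), Bcl2l14 159 and 124 ± 70.5 CPM, and S100a6 303 and 453 ± 94.7 CPM, with all 4 deleted plates above the control. Glipr2 had 135 CPM in Ikbkb_FF and 20.4 ± 40.1 CPM in Ikbkb_dXCR1, all 4 plates below the control (log2 fold change -2.72 ± 2.39 SE, edgeR adjusted p = 1), which is opposite to its order in Ccr7+ cells. Pdlim4 had 79.0 CPM and 15.9 ± 31.8 CPM, with 3 deleted plates at 0 and all 4 below the control. Of all 15483 genes 5.54% had every deleted plate above the control and 16.3% every one below. The control and Ikbkb_dXCR1 1 and 2 were 8 weeks old and Ikbkb_dXCR1 3 and 4 were 6 weeks old, so age and genotype are partly mixed here too. Il1r2, at 199 and 166 ± 146 CPM, was not higher in the mean of the deleted plates. Spic had no UMI in these cells of either genotype, which allows shares of up to 11.5% in 26 cells and 3.45% in 87. The Irf1 difference minus the Ikbkb difference in Ccr7- cells rests on the single Ikbkb_FF plate. On the log2 scale, with its SE, it was -0.19 ± 0.70 for Txndc17, 1.86 ± 3.02 for Glipr2, 0.32 ± 2.06 for Bcl2l14 and -0.23 ± 1.26 for AW112010. It was 1.32 ± 3.43 for Pdlim4, 0.21 ± 0.70 for S100a6, -1.61 ± 2.25 for Gngt2 and 2.74 ± 2.27 for Il1r2. These errors are wide and do not show that the differences are alike. For Spic it could not be estimated.

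Ccr7+ and Ccr7- cells were compared within 4 Ikbkb plates. EdgeR with plate as a block called 13 of 9035 genes, or 0.144%, 11 of them higher in Ccr7+ cells (0.122%) and 2 lower (0.0221%), and the median over all genes was -1.36. No member was called. The highest values were 6.48 ± 1.57 for Glipr2 (SE; edgeR adjusted p = 0.132), 3.19 ± 1.07 for Gngt2 (adjusted p = 0.638) and 1.85 ± 0.65 for Bcl2l14 (adjusted p = 0.744). AW112010 had a smaller but tighter value of 1.48 ± 0.33 (edgeR adjusted p = 0.0657), and Txndc17 had 1.31 ± 0.42 (adjusted p = 0.505). S100a6 and Il1r2 stood below 0, at -0.30 ± 0.58 and -0.68 ± 1.39, and Spic had too few UMIs to be kept. Glipr2 and AW112010 passed the threshold under several alternative settings, as given in the closing section. The number of all genes called changed with the setting as well, so these passes are not read as a result about the members.

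**Figure D5:**
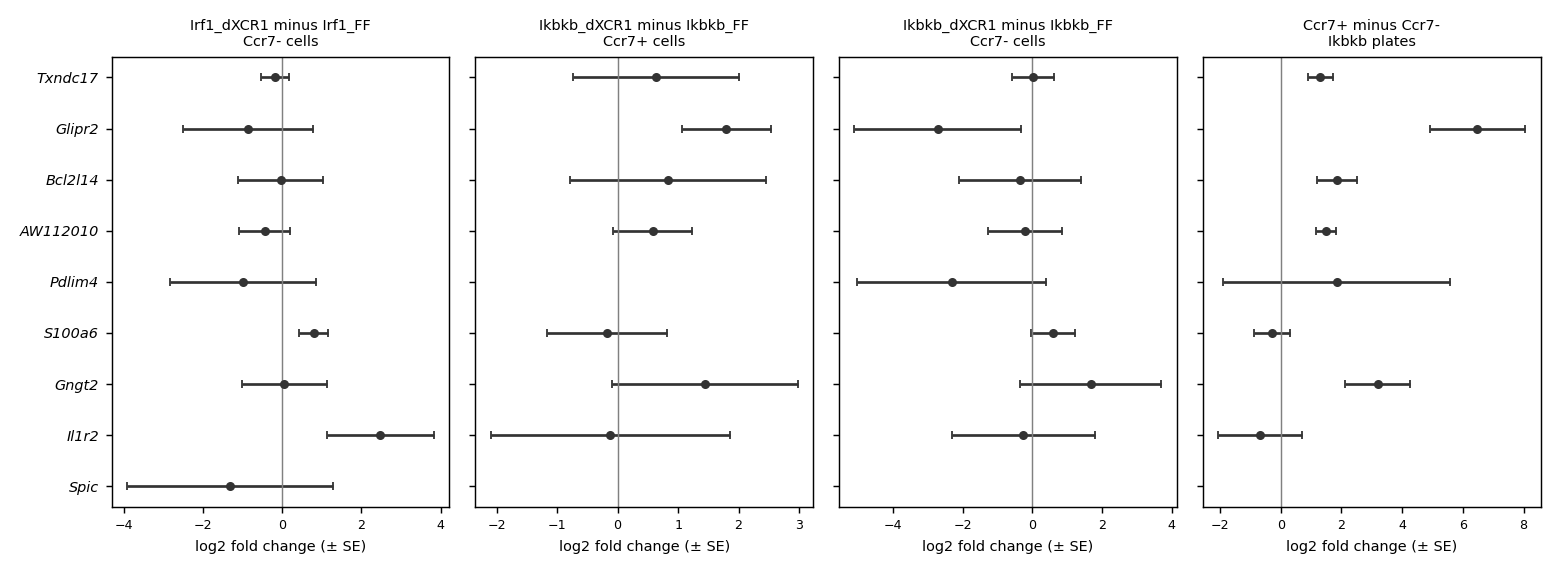
Log2 fold change with its standard error (horizontal axis) of each member in the 4 tests on cells or plates that the choice of members did not use; members with no UMI in one group are left out. Glipr2 at 6.48 in the comparison of Ccr7+ with Ccr7- cells has the highest value, and no member passes an adjusted p of 0.05.

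Relatives of the members were counted by plate separation as well. Between the Irf1 genotypes in Ccr7+ cells, where the values are a description, plates were separated for 1 of 18 thioredoxin family genes kept, 1 of 18 BCL2 family genes, 1 of 9 G protein subunits, 1 of 17 genes of the IL-1 family and its receptors, 1 of 3 SPI factors and 1 of 9 S100 genes. None of 4 PDZ and LIM genes and none of 3 CAP family genes was separated. In 5 of these families the separated gene was the member itself: Bcl2l14, Gngt2, Il1r2, Spic and S100a6. This contrast chose those 5, and 0.882% of all genes were separated, 0.501% below, so nothing is read from these counts. In the thioredoxin family, whose list leaves Txndc17 out, it was Txn1, the main cytosolic thioredoxin, at 1561 ± 516 CPM in Irf1_FF and 901 ± 119 CPM in Irf1_dXCR1. The cytokine Il1b, a ligand that the decoy receptor binds, had 198 ± 188 and 750 ± 338 CPM with overlapping plates, and S100a11 had 474 ± 128 and 635 ± 318.5 CPM. Of 37 interferon-gamma and IRF1 targets 2 were separated, both lower, with a list median of -0.46 on the log2 scale against 0 over all genes. The list holds Irf1 itself, the member AW112010, and Ccl5 and Il12b, which were picked with the members. Nothing is therefore read from its count or median. The 2 separated genes were the peptide transporter Tap1 and the class I molecule H2-T23, named after their values were seen. In the 4 tests none of these families had a gene past the threshold, with 1 exception: the chemokine Ccl5 was higher in Ccr7+ than Ccr7- cells of the Ikbkb plates (log2 fold change 3.43 ± 0.53, edgeR adjusted p = 0.0014546), the only one of 36 targets tested.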

How the data were processed

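The deposited table holds UMI counts of 555 single cells, and per the labels' protocols the cells were sorted by FACS into plates and their transcripts tagged at the 5′ end. The submitters' processing notes list HTSeq 0.9.1, STAR 2.5.3a, bcl2fastq and the build GRCm38. A second deposited table gives each cell's plate, genotype, the mouse's age, the fraction of mitochondrial UMIs as the authors computed it, and protein stainings, which the authors deposited for 458 cells as a score on the arcsinh scale. Counts reach 1024 per gene and cell with a median non-zero count of 64, and are limited by the number of distinct UMIs. Each cell's counts added up to its deposited total, and 0 cell names were shared between plates.

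The 9 genes, the gene lists and the marker lists were chosen with earlier results of these data known. The named genes were the members, Irf1, Ikbkb, Ccr7, Ccl5 and Il12b, the 2 most abundant or the called genes of each family list, and the 3 genes most like each member. Positions are from GENCODE M21 and promoters from RefSeq; 21042 of the 21205 symbols matched the annotation. Cells are not replicates: counts were summed per plate over Ccr7+ or Ccr7- cells, for plates with at least 5 such cells, genes were kept by filterByExpr and scaled by TMM. Tests were two-sided quasi-likelihood tests (edgeR 4.0.16, R 4.3.3) with Benjamini-Hochberg adjustment over all genes and a threshold of 0.05. All plates of a fit shared 1 estimate of the spread. The comparison of Ccr7+ with Ccr7- cells had the plate as a block, because both kinds of cells came from the same mouse. Replicate numbers follow accession order and pair nothing across genotypes. With 1 plate per mouse, p-values of the genotype comparisons rest on the spread between mice of a genotype, pooled over experiments M2 and M3. Those of the comparison of Ccr7+ with Ccr7- cells rest on plates of M2 alone. Intervals of shares are exact binomial. The upper limits given for shares at 0 are an approximation, 3 divided by the number of cells. Alternatives were DESeq2 1.42.0, upper-quartile scaling, no filter on low counts, other gates and cell minimums, other sets of plates and leaving out each plate. The fits were tested on simulated data. Python 3.11.15, pandas 2.3.3 and numpy 2.4.6 were used.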

Additional observations from a re-analysis of the deposited data

Results flagged for a closer look

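Of 44 groups of 4 or 5 plates examined, 6 held a plate far from the others. Chance gives about 1 in 20 for normally distributed values. Several groups here held plates at 0, and a single plate with UMIs beside plates at 0 is always flagged. The number flagged is therefore not compared with that rate. Glipr2 in Ccr7+ cells was 1147 CPM on Irf1_dXCR1 plate 2 and 579 to 660.5 CPM on the other plates, from 2 of 8 cells. In Ccr7- cells Glipr2 was 184 CPM on Irf1_dXCR1 plate 5 against 0 to 36.3 CPM, from 12 of 31 cells, and 80.6 CPM on Ikbkb_dXCR1 plate 4 against 0 to 1.24 CPM, from 4 of 29 cells. Pdlim4 was 63.6 CPM on Ikbkb_dXCR1 plate 3 in Ccr7- cells and 0 on the other plates, from 1 of 23 cells. Spic was 0.493 CPM in Ccr7+ cells of Irf1_FF plate 2, which is 1 UMI in 1 of 15 cells, and 0 on the other control plates. Spic was also 40.7 CPM in Ccr7- cells of Irf1_dXCR1 plate 1 against 0 to 8.80 CPM, from 2 of 44 cells.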

How the results depend on the processing

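In the description of Ccr7+ cells by Irf1 genotype, 219 of 225 values of single members under the alternatives moved by less than the spread between plates and none changed sign. This contrast chose the members, so kept signs were likely beforehand and are no support for the difference. The number of members separated by level was 6 to 9 and by share 4 to 6. All 9 were separated by level only with at least 10 Ccr7+ cells per plate required, which left fewer plates, and fewer plates separate more easily. The share over all genes was computed only for the main setting, at 0.882% by level and 0.611% by share, so nothing is read from these counts. By level Txndc17, Bcl2l14, S100a6 and Spic were separated under every alternative, while Il1r2 overlapped with Fscn1 required and Gngt2 with cells' own CPM averaged. By share Txndc17, Glipr2 and Bcl2l14 were separated under every alternative, and Il1r2 overlapped with at least 10 Ccr7 UMIs.

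The number of genes called depended on the tool and the plates. In Ccr7- cells between the Irf1 genotypes it was 0 with edgeR, also without any 1 plate (0 to 0), and 94 with DESeq2. Between the Ikbkb genotypes in Ccr7+ cells it was 17, and 1181 with DESeq2, 0 with upper-quartile scaling, 43 without a filter on low counts, 7 with at least 10 Ccr7 UMIs and 59 with only the plates compared. In Ccr7- cells it was 2, and 1136 with DESeq2, 0 with Fscn1 required as well, 0 with only the plates compared and 0 to 2 without 1 plate, 0 without Ikbkb_dXCR1 replicate 2, 3 or 4. Between Ccr7+ and Ccr7- cells of the Ikbkb plates it was 13 with the plate as a block and 3 with no replicate block. It was 1006 with DESeq2, 1104 with all plates that had both kinds, 23 with upper-quartile scaling, 73 without a filter, 22 with at least 10 Ccr7 UMIs, 43 with at least 3 cells, 2 with at least 10 cells and 6 with only Ikbkb_dXCR1 plates. The setting with all plates includes the Irf1 plates whose contrast chose the members. Without 1 plate it was 6 to 47: 6 without Ikbkb_FF 1, 8 without Ikbkb_dXCR1 1, 32 without 3 and 47 without 4. Of the calls 84.6% were higher in Ccr7+ cells with edgeR and 17.3% with DESeq2.

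Members' log2 fold changes kept their direction and their side of the threshold in 379 of 424 alternative values, 31 changed sign and 14 passed the threshold, all 14 in the comparison of Ccr7+ with Ccr7- cells. Those were Glipr2 (6 settings), AW112010 (6) and Gngt2 (2), among them Glipr2 with DESeq2 (adjusted p = 5.495e-05) and with at least 3 cells (0.006565), AW112010 with upper-quartile scaling (0.01224) and Gngt2 with DESeq2 (0.03503). The main setting called 13 of 9035 genes, and the numbers of all genes called under the alternatives are given above. For Irf1 in Ccr7- cells Gngt2 was -0.032 with DESeq2, Bcl2l14 0.063 with upper-quartile scaling, and Txndc17 0.035, Bcl2l14 0.47 and Gngt2 -0.13 with Fscn1 required. For Ikbkb, S100a6 was 0.23 in Ccr7+ cells with at least 10 Ccr7 UMIs, and in Ccr7- cells Txndc17 was -0.006 without a filter, and Bcl2l14 0.66 and AW112010 0.11 with Fscn1 required. Between Ccr7+ and Ccr7- cells S100a6 was 0.078 with at least 10 Ccr7 UMIs. Leaving out 1 plate gave -0.99 to 0.24 for AW112010, -1.04 to 0.29 for Bcl2l14, -0.49 to 0.63 for Gngt2 and -0.39 to 0.022 for Txndc17 in the Irf1 comparison of Ccr7- cells. It gave -0.081 to 1.00 for AW112010, -0.61 to 0.50 for Il1r2 and -0.50 to 0.21 for S100a6 between the Ikbkb genotypes in Ccr7+ cells. In Ccr7- cells it gave -0.52 to 0.053 for AW112010, -0.96 to 0.15 for Il1r2 and -0.074 to 0.068 for Txndc17, and between Ccr7+ and Ccr7- cells -1.76 to 5.18 for Pdlim4. The cause of these differences was not tested. The Ikbkb comparison in Ccr7+ cells with Fscn1 required or at least 10 cells, and both Ikbkb comparisons without Ikbkb_FF replicate 1, were not run because no control plate remained.

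The Ikbkb control is a single plate with 8 Ccr7+ cells, which limits its precision, and 14 of the 49 Ccr7+ cells of Irf1_FF had fewer than 50000 UMIs.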
